A study of Homo sapiens with 14 samples.

Results

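The genes described here are 36 genes of G2 and mitosis, the stretch of the cell cycle from the end of DNA replication to the parting of the daughter cells. They were chosen by symbol, and all 36 were present in both deposited expression tables, among 28501 named rows of the replicate 1 table and 25209 rows of the replicate 2 table. RNA sequencing was done on U2OS, an established human osteosarcoma cell line, kept with the solvent DMSO (0.5% by volume) or with 1 of 9 small molecules. Of these, 2-PCPA (1 mM, 12 h), an inhibitor of the histone demethylase KDM1A, GSK343 (10 μM, 24 h), an inhibitor of the histone methyltransferase EZH2, and rapamycin (5 μM, 24 h), an inhibitor of the growth kinase mTOR, had 2 libraries each, as did DMSO. The other 6 compounds had 1 library each, all in the replicate 1 table. They were GSK-J4 (20 μM, 12 h), an inhibitor of KDM6 demethylases, the EHMT2 methyltransferase inhibitors BRD4770 (20 μM, 24 h) and BIX-01294 (5 μM, 12 h), the deacetylase inhibitors SAHA (1 μM, 24 h) and VPA (20 μM, 24 h), and UNC1215 (50 μM, 24 h), a ligand of the chromatin reader L3MBTL3. The labels give no time for DMSO, and compounds given for 12 h and for 24 h were set against the same control of their table. Every difference from DMSO in the replicate 1 table therefore shares 1 control library.

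Entry into mitosis is driven by the kinase CDK1 bound to cyclins A and B, once the phosphatase CDC25C has removed inhibitory phosphates from CDK1. Aurora and Polo-like kinases, kinesin motors and kinetochore proteins then build the spindle, a checkpoint waits until all chromosomes are attached, and the ubiquitin ligase APC/C with its activator CDC20 ends mitosis by marking securin and cyclin B for destruction. Transcription of these genes is low in G1 and climbs toward mitosis. It is repressed by the DREAM complex and activated by MYBL2 and FOXM1, with promoter elements called CCAAT boxes and CHR elements taking part. In these bulk samples, fewer cells in G2 or mitosis and less RNA of these genes per cell cannot be told apart.

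Values are FPKM as the authors deposited them (fragments scaled by gene length and by library size), so levels of different genes can be set side by side per length. Each library held 12045 to 13157 genes at 1 FPKM or more. One library, 2-PCPA of replicate 1, differed from all the others. Over 12603 genes its median log2 difference from DMSO was −0.42, where the other libraries lay between −0.05 and 0.03, and 28.0% of 375 olfactory receptor genes, which such cells normally keep silent, had a value above 0, against 2.40% to 6.40% in the other libraries of that table. Of 14 markers of the osteoblast lineage, 7 reached 1 FPKM in DMSO of the replicate 1 table and 9 in that of replicate 2, while TWIST1 and SP7 were listed at 0 in every library. Of 10 epithelial markers 5 did so in each table, and their summed level ran from 468 (BRD4770) to 1169 FPKM (BIX-01294). Blood markers summed to at most 2.59 FPKM and endothelial markers to at most 2.71 FPKM in any library. Whether replicates came from separate cultures is not stated, and the p-values reflect only the scatter among these libraries, which may be technical.

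Upstream sequence is shown for 7 of the genes, because PLK1, CDC20, CCNB1, CCNB2 and KIF20A lay far below DMSO with GSK-J4 and BRD4770, and CDK1 and CKS2 stood apart from the others with BIX-01294. RefSeq promoters (GRCh38.p14, 250 bases before to 50 after the start of each gene) were matched for 31 of the 36 genes. Each line gives the 150 bases before the annotated start, 5′ to 3′. The capitals mark CCAAT and the CHR letters TTTGAA or TTTAAA on either strand. All 7 genes lie on the plus strand, in the windows chr16:23678739-23678888 for PLK1, chr1:43358831-43358980 for CDC20, chr5:69167000-69167149 for CCNB1, chr15:59104996-59105145 for CCNB2, chr5:138178962-138179111 for KIF20A, chr10:60778181-60778330 for CDK1 and chr9:89311045-89311194 for CKS2.
PLK1: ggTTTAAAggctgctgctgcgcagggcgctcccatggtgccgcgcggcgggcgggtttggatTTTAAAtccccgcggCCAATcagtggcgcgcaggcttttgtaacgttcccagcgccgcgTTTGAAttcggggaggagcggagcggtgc
CDC20: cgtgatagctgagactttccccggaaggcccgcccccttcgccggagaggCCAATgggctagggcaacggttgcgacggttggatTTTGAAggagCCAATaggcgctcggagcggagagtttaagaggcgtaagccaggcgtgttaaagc
CCNB1: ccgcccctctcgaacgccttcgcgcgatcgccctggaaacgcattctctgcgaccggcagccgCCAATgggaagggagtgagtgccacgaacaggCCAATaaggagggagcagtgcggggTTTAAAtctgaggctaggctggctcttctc
CCNB2: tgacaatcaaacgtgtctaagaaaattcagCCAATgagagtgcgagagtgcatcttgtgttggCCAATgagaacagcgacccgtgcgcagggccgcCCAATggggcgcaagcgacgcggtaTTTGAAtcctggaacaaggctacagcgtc
KIF20A: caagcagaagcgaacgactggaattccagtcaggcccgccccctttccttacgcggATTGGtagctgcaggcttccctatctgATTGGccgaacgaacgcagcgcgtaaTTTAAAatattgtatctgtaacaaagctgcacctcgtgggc
CDK1: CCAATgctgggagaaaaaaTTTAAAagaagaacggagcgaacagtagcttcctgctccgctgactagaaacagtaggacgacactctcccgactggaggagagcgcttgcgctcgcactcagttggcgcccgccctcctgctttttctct
CKS2: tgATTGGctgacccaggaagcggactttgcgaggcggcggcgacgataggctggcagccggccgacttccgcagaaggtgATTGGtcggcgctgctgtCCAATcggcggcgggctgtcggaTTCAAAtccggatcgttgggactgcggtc

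CCAAT boxes and CHR letters were both frequent in the promoters of these genes. Both strands of the 300-base window were searched, and matches were free to overlap each other. Where a gene had several listed promoters, only the first was used. This applied to CDC25C, with 4, and to AURKB, CDK1, ECT2 and PTTG1, with 2 each. CDC25C had neither CCAAT nor CHR letters in that window, so it is among the genes without in both comparisons below. Its other promoters were not used. TTTGAA or TTTAAA occurred in 27 of 31 promoters (87.1%), against 24.3% of 27305 RefSeq promoters and 19.5% of the 15842 of protein-coding genes. CCAAT occurred in 24 of 31 (77.4%), against 35.7% and 36.4%. Both occurred in 21 of 31 (67.7%), against 9.49% and 7.95%, and the E2F-type letters TTTNGCGC in 2 of 31 (6.45%), against 1.83% and 2.44%. A match describes letters in this window and does not show a bound factor. The median log2 difference from DMSO of the 24 genes with CCAAT and the 7 without was −0.99 and −0.54 with BRD4770, −1.08 and −0.96 with GSK-J4, and in the other order, −0.24 and −0.43, with SAHA. For the 27 genes with TTTGAA or TTTAAA and the 4 without it was −0.97 and −0.78 with BRD4770, −1.17 and −0.97 with GSK-J4 and −0.28 and 0.04 with SAHA. It was −0.05 and 0.06 with VPA, and in the other order with BIX-01294 (−0.17 and −0.23) and UNC1215 (0.04 and 0.02).

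In DMSO the 36 genes were abundant transcripts. Their median was 72.9 FPKM in replicate 1 and 72.1 FPKM in replicate 2, and the former lies above 92.7% of the 12804 genes averaging 1 FPKM or more in that table, whose median was 9.26 FPKM. The highest levels belonged to the securin gene PTTG1 (246 and 231 FPKM), to CKS2 (239 and 238 FPKM), a small subunit that docks on CDK1, and to CDC20 (218 and 277 FPKM). The lowest belonged to CDC25C (6.53 and 10.3 FPKM) and to the spindle pole gene ASPM (10.5 and 5.61 FPKM). PTTG1 has near-identical copies in the genome and is uncertain for that reason. Across the 10 libraries of the replicate 1 table, 17 of the 36 genes had their lowest level with GSK-J4, 15 with BRD4770 and 4 with 2-PCPA. The highest level was with UNC1215 for 14 genes, with BIX-01294 for 9, with DMSO for 7 and with SAHA and VPA for 3 each.

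**Figure D1:**
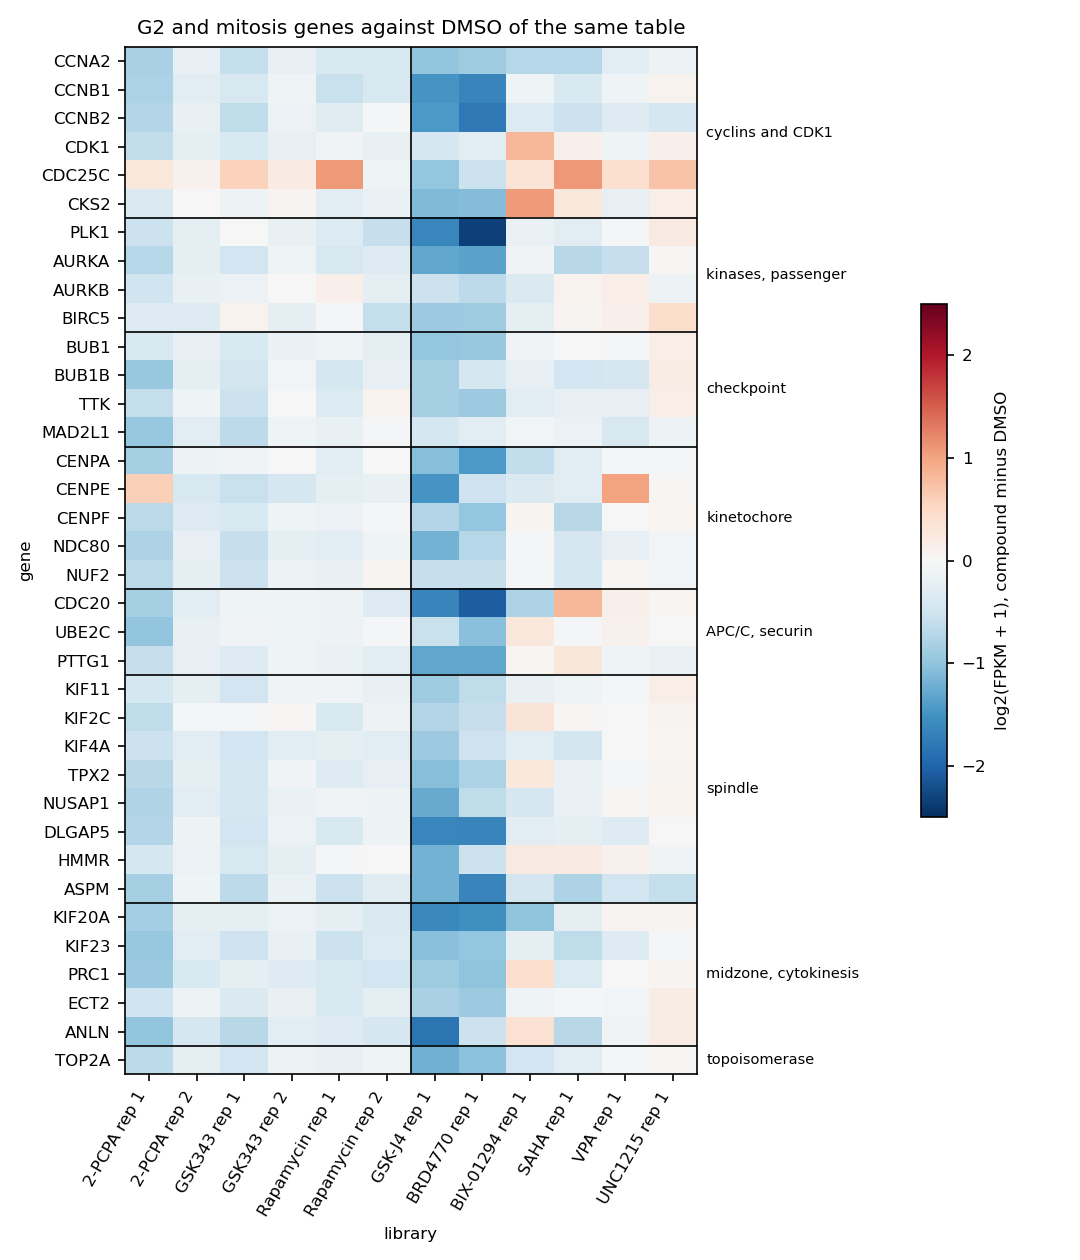
Difference of log2(FPKM + 1) between each compound library and DMSO of the same table, with the 36 genes in rows grouped by role, and the compound libraries in columns (blue below DMSO, red above). All 36 genes are below DMSO with GSK-J4 and with BRD4770, and the lowest value is that of PLK1 with BRD4770 (−2.33).

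With GSK-J4 and with BRD4770, each of the 36 genes was below DMSO. The median log2 difference, on the log2(FPKM + 1) scale used throughout, was −1.05 with GSK-J4 (2.07-fold lower) and −0.91 with BRD4770 (1.88-fold lower), while the medians of all 12804 genes were 0.00 and −0.01. With GSK-J4 31 of the 36 were lower by more than 1.5-fold and 0 higher, where 16.4% of all genes were lower and 19.1% higher by that much. With BRD4770 26 were lower and 0 higher, against 13.8% and 14.5% of all genes. Past 2-fold, 19 were lower with GSK-J4 (5.96% of all genes) and 14 with BRD4770 (4.84%), and 0 were higher with either (8.92% and 5.94%). Each compound had 1 library, so these differences have no replicate check and no test was made.

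Among the cyclins and partners of CDK1, the B-type cyclins lay lowest. CCNB1, cyclin B1, was at 128 FPKM in DMSO replicate 1, 45.2 with GSK-J4 (−1.48), 40.1 with BRD4770 (−1.65) and between 74.0 and 136 FPKM in the other 7 libraries of that table. CCNB2, cyclin B2, went from 101 FPKM in DMSO to 36.8 (−1.43) and 28.6 FPKM (−1.79). CCNA2, cyclin A2, was nearer to DMSO, at 38.7 (−0.99) and 41.4 against 77.9 FPKM (−0.90). CDK1 itself differed least, with 96.7 FPKM (−0.42) and 108 FPKM (−0.27) against 130.1 FPKM, so that the kinase stayed within 1.5-fold of DMSO in both libraries. CKS2 was at 110.3 (−1.11) and 112 against 239 FPKM (−1.08). CDC25C, scarce in all libraries, was at 2.87 (−0.96) and 4.22 against 6.53 FPKM (−0.53).

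The mitotic kinases and APC/C genes held some of the widest gaps. PLK1, the Polo-like kinase that acts from mitotic entry to cytokinesis, was at 62.2 FPKM in DMSO, 19.4 with GSK-J4 (−1.63) and 11.6 with BRD4770 (−2.33), and between 42.6 and 73.2 FPKM in the other 7 libraries. The BRD4770 and GSK-J4 libraries were thus its lowest, by a clear gap to the next. AURKA, the Aurora kinase of the spindle poles, was at 31.2 (−1.29) and 30.2 against 77.9 FPKM (−1.34), and AURKB, the Aurora kinase of the chromosomal passenger complex, at 35.7 (−0.53) and 32.5 against 51.9 FPKM (−0.66). BIRC5, survivin of the same complex, was at 38.6 and 38.9 against 72.9 FPKM. CDC20 was at 69.0 (−1.65) and 51.3 against 218 FPKM (−2.07), and securin PTTG1 at 99.8 (−1.29) and 99.0 against 246 FPKM (−1.30). UBE2C, the ubiquitin-conjugating enzyme of APC/C, was within 1.5-fold of DMSO with GSK-J4 (114 against 169 FPKM, −0.56) and past it with BRD4770 (80.9 FPKM, −1.05).

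Checkpoint genes had medians of −0.84 with GSK-J4 and −0.67 with BRD4770, and kinetochore genes of −1.06 and −0.72. Of the checkpoint genes, BUB1, a kinase of the kinetochore, was at 26.5 (−0.97) and 27.1 against 52.9 FPKM (−0.94) and TTK (MPS1), the kinase that starts the checkpoint, at 9.32 (−0.84) and 8.80 against 17.5 FPKM (−0.92). MAD2L1, the MAD2 protein that holds CDC20 inactive, was at 74.5 (−0.45) and 84.5 against 102 FPKM (−0.27), and BUB1B (BubR1) at 20.2 (−0.83) and 26.9 against 36.7 FPKM (−0.43). CENPA, the histone variant of centromeres, was lower with BRD4770 (21.8 FPKM, −1.43) than with GSK-J4 (28.4 FPKM, −1.06), with 60.3 FPKM in DMSO. CENPE, a kinesin that carries chromosomes to the spindle centre, had the reverse order, with 10.8 FPKM (−0.52) and 5.04 FPKM (−1.48) against 15.9 FPKM. The microtubule-binding kinetochore genes NDC80 (−1.17 with GSK-J4, −0.72 with BRD4770) and NUF2 (−0.58 and −0.58) belong to one complex, and NUF2 lay just inside the 1.5-fold limit in both libraries.

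Spindle and cytokinesis genes completed the set. With GSK-J4 all 8 spindle genes and all 5 midzone and cytokinesis genes were past 1.5-fold lower, and with BRD4770 5 of 8 and 4 of 5. DLGAP5, which stabilises spindle microtubules, was at 29.2 (−1.63) and 28.5 against 92.2 FPKM (−1.66), and ASPM at 4.06 (−1.19) and 2.69 against 10.5 FPKM (−1.64). KIF20A, a kinesin of the spindle midzone, was at 12.3 (−1.62) and 13.2 against 39.9 FPKM (−1.53). ANLN, anillin of the contractile ring, was the lowest gene with GSK-J4 (25.5 against 92.8 FPKM, −1.82) but stayed within 1.5-fold with BRD4770 (63.5 FPKM, −0.54). The kinesins KIF11 (−0.88 and −0.63), KIF2C (−0.73 and −0.58) and KIF4A (−0.91 and −0.52) differed less from DMSO than KIF20A did. TOP2A, the topoisomerase that untangles sister chromatids, was at 59.2 (−1.20) and 66.6 against 137 FPKM (−1.03).

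**Figure D2:**
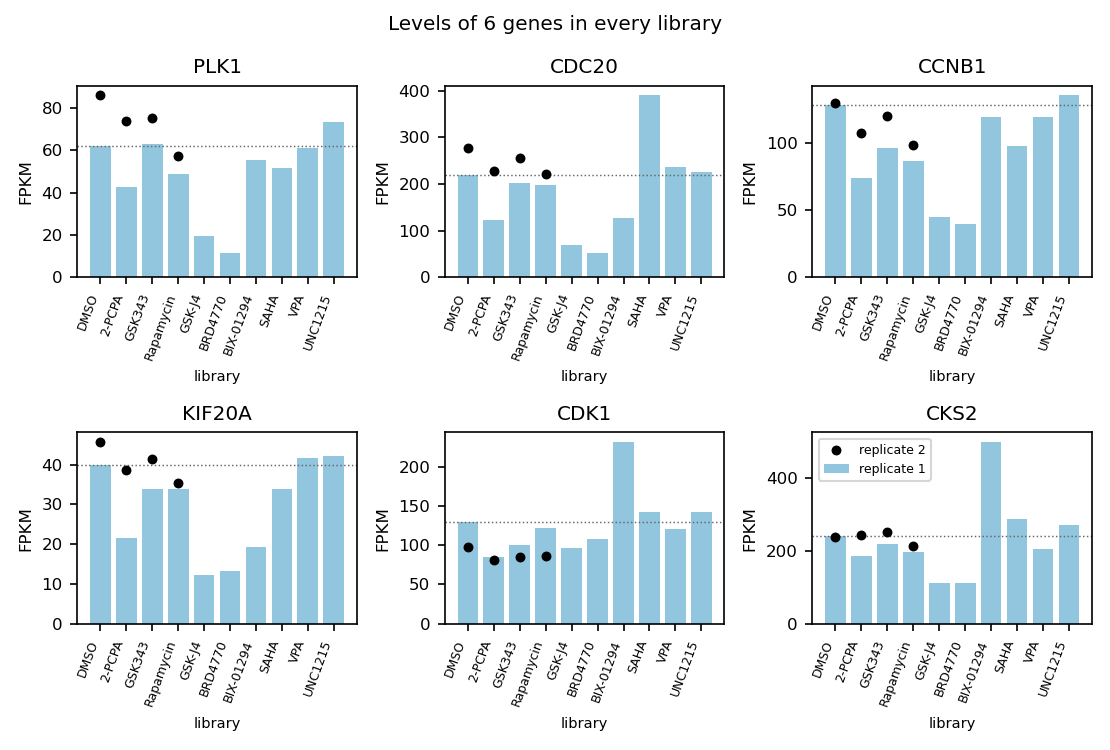
FPKM of 6 of the genes in each of the 14 libraries, with bars for the replicate 1 table, dots for the replicate 2 table and a dotted line at DMSO of replicate 1. PLK1 lies at 11.6 FPKM with BRD4770 and 19.4 with GSK-J4 and at 42.6 or more in every other library, while CDK1 and CKS2 are highest with BIX-01294 (232 and 498 FPKM).

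GSK-J4 and BRD4770 were both given at 20 μM, but for 12 h and 24 h, so their libraries differ in time as well as compound. Set directly against each other, 31 of the 36 genes were within 1.5-fold and the median difference (GSK-J4 minus BRD4770) was −0.03. ANLN (−1.28), CENPE (−0.96), HMMR (−0.63), a spindle assembly protein, and NUSAP1 (−0.61), a microtubule bundler, were lower with GSK-J4 past 1.5-fold, and PLK1 (0.70) was higher. These 4 and 1 of 36 compare with 11.5% of all genes lower and 14.6% higher.

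BIX-01294 left most of the 36 genes near DMSO and had single genes on both sides. The median was −0.14, against 0.06 for all genes, with 25 genes below DMSO and 11 above. Past 1.5-fold 4 were lower and 2 higher, where 15.5% and 21.9% of all genes were. The count lower was 8 with quantile normalization and 7 with TPM scaling, but the shares of all genes under these settings are not given here. Past 2-fold 1 was lower and 1 higher (6.04% and 9.97%). KIF20A (19.3 against 39.9 FPKM, −1.01), CDC20 (127 against 218 FPKM, −0.78), CCNA2 (47.0 against 77.9 FPKM, −0.72) and CENPA (39.0 against 60.3 FPKM, −0.62) were the lower ones. CKS2 (498 against 239 FPKM, 1.06) and CDK1 (232 against 130.1 FPKM, 0.83) were the higher ones, and both had their highest level of all 14 libraries there. The B-type cyclins did not share this, since CCNB1 (119.7 against 128 FPKM) and CCNB2 (79.9 against 101 FPKM) were slightly below DMSO. BIX-01294 and GSK-J4 were both given for 12 h, at different doses (5 μM and 20 μM). Side by side, 30 of the 36 genes were past 1.5-fold lower in the GSK-J4 library (24.5% of all genes), with ANLN (25.5 and 120.4 FPKM) and CKS2 (110.3 and 498 FPKM) farthest apart. Between BIX-01294 and BRD4770, which share a target but not dose or time, 25 of 36 were past 1.5-fold higher with BIX-01294 (25.7% of all genes).

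With the deacetylase inhibitor SAHA most of the genes described here, 28, were within 1.5-fold of DMSO. The median was −0.24, against 0.05 for all genes, and 6 were past 1.5-fold lower and 2 higher (11.8% and 19.1% of all genes), with 0 and 1 past 2-fold (3.83% and 7.79%). With TPM scaling 12 were past 1.5-fold lower, but the share of all genes under that setting is not given here. Such scaling lowers every SAHA value against DMSO, since the summed FPKM was 531006 with SAHA and 456039 in DMSO. ASPM (−0.78), CCNA2 (−0.71), ANLN (−0.70), AURKA (−0.69), CENPF (−0.68), a large kinetochore protein, and KIF23 (−0.63), a midzone kinesin, were lower. CDC20 was higher, at 390.6 FPKM against 218 FPKM in DMSO (0.84), its highest level of any library, and CDC25C was at 14.9 against 6.53 FPKM (1.08). CDC25C was above DMSO in 7 of the 9 compound libraries of that table, and DMSO itself was at 6.53 FPKM there and at 10.3 FPKM in replicate 2.

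VPA and UNC1215 left nearly all 36 genes within 1.5-fold of DMSO. With VPA the median was −0.03 (0.01 for all genes), 0 genes were past 1.5-fold lower and 1 higher (6.83% and 10.1% of all genes), the same counts as past 2-fold (1.59% and 2.81%). That gene was CENPE, at 33.1 against 15.9 FPKM (1.01), and AURKA (52.0 against 77.9 FPKM, −0.57) lay just inside the limit on the other side. With UNC1215 the median was 0.05 (0.04 for all genes), and ASPM (6.62 against 10.5 FPKM, −0.60) was lower and CDC25C (11.3 against 6.53 FPKM, 0.71) higher, where 4.09% and 6.26% of all genes passed the limit. Past 2-fold 0 were lower and 0 higher (1.26% and 1.8% of all genes). SAHA and VPA, both deacetylase inhibitors given for 24 h but at 1 μM and 20 μM, were within 1.5-fold of each other for 31 of the 36 genes. CENPE (−1.29, SAHA minus VPA), CENPF (−0.69) and ANLN (−0.61) were lower with SAHA, and CDC20 (0.72) and CDC25C (0.68) higher, where 13.2% of all genes were lower and 17.1% higher.

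**Figure D3:**
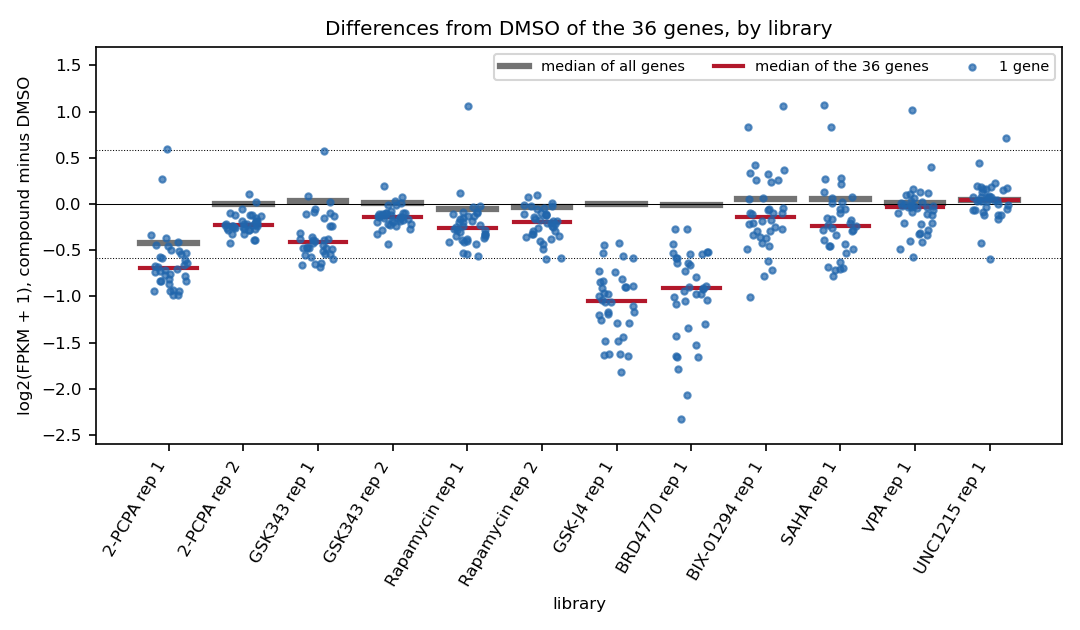
Each point is 1 of the 36 genes in 1 compound library, as the difference of log2(FPKM + 1) from DMSO of the same table, with the median of the 36 genes in red, that of all genes in grey and dotted lines at 1.5-fold. The medians of the 36 genes are lowest with GSK-J4 (−1.05) and BRD4770 (−0.91) and closest to 0 with VPA (−0.03) and UNC1215 (0.05).

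The 3 compounds with 2 libraries could be tested. Small shortfalls against DMSO appeared in both replicates for most of the 36 genes, and none passed the test. The 3 comparisons share the same 2 DMSO libraries, so their counts are not separate observations. In the replicate 2 table, 29 of the 36 genes had their highest level in DMSO. Of the 36, 33 were lower in both replicates with 2-PCPA (42.2% of all 12603 genes tested), 30 with GSK343 (26.7%) and 31 with rapamycin (37.1%). In limma, with Benjamini-Hochberg adjustment over all genes, 0 of 36 passed an adjusted p of 0.05 with each compound, where 0.0238%, 0.0159% and 0.0159% of all genes did. At an unadjusted p under 0.05, 6 of 36 were lower with 2-PCPA (5.99% of all genes), 0 with GSK343 (0.92%) and 0 with rapamycin (3.24%), and 0 were higher with each (1.49%, 3.3% and 3.22%). The 95% interval of a gene's log2 fold change reached, in the median over the 36, 0.53 to either side.

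With 2-PCPA the 36 genes lay further below DMSO in replicate 1 than in replicate 2, and so did all genes. Over both replicates the median log2 fold change was −0.46 for the 36 genes and −0.20 for all genes. The median of the 36 genes was −0.69 in replicate 1, where all genes had a median of −0.42, and −0.23 in replicate 2, where all genes were at 0.01. Relative to the all-gene median, the median of the 36 genes was −0.27 in replicate 1 and −0.23 in replicate 2. Past 1.5-fold, 24 genes were lower and 1 higher in replicate 1 (33.7% and 2.79% of all genes). In replicate 2 0 were past it in either direction, where only 1.81% of all genes were lower and 3.23% higher. The replicate 1 library is the one that differed from all the others. Without it the fitted median of the 36 genes was −0.28, with all genes at 0.01 and 35 of the 36 lower. In replicate 2 alone 34 of the 36 were below DMSO, where 48.1% of all genes were. ANLN was at 92.8 and 87.8 FPKM in DMSO and at 46.5 and 65.5 FPKM with 2-PCPA (log2 fold change −0.70, SE 0.25, limma adjusted p = 0.592). The midzone bundler PRC1, at 66.9 and 71.6 FPKM in DMSO and 34.7 and 54.6 with 2-PCPA, and KIF23, at 78.2 and 65.3 and then 40.2 and 53.4 FPKM, had fold changes of −0.66 (SE 0.24) and −0.61 (SE 0.24) with the same limma adjusted p of 0.592. CENPE went opposite ways, with 24.4 against 15.9 FPKM in replicate 1 but 12.9 against 17.2 FPKM in replicate 2.

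With GSK343 the median of the 36 genes also lay further below DMSO in replicate 1 (−0.41, with all genes at 0.03) than in replicate 2 (−0.14, with all genes at 0.01). Over both replicates it was −0.28. It was −0.15 without DMSO replicate 1, −0.39 without DMSO replicate 2, −0.23 without GSK343 replicate 1 and −0.34 without GSK343 replicate 2. The largest differences were in CENPE, at 15.9 and 17.2 FPKM in DMSO and 10.5 and 12.5 with GSK343 (−0.49, SE 0.29), and ANLN, at 57.4 and 72.2 FPKM with GSK343 (−0.48, SE 0.25), both with a limma adjusted p of 0.949. With rapamycin the median was −0.26 and −0.19, with all genes at −0.05 and −0.03. Over both replicates it was −0.21, and it was −0.10 without DMSO replicate 1, −0.34 without DMSO replicate 2 and −0.14 without rapamycin replicate 2. CCNB1, at 128 and 130.1 FPKM in DMSO, was at 86.6 and 98.4 FPKM with rapamycin (−0.48, SE 0.23, limma adjusted p = 0.757), and PLK1, at 62.2 and 86.1 FPKM, was at 48.6 and 57.3 FPKM (−0.46, SE 0.23, limma adjusted p = 0.757). Neither gene's rapamycin libraries overlapped its DMSO libraries, but the share of all genes without overlap is not given here. CDC25C differed between the rapamycin replicates, with 14.7 against 6.53 FPKM in DMSO and 9.47 against 10.3 FPKM.

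Between these 3 compounds 0 of 36 genes passed the limma test, and 0 had an unadjusted p under 0.05 in either direction (9.28% of all genes lower and 2.49% higher, 1.55% and 4.05%, and 10.9% and 0.762%, in the order below). Of all genes 0.0476% passed for 2-PCPA against rapamycin, 0.0793% for GSK343 against rapamycin and 0.0317% for 2-PCPA against GSK343. The median of the 36 genes was −0.22, −0.03 and −0.19 in these comparisons, and that of all genes −0.14, 0.08 and −0.23. For 2-PCPA against GSK343 the sign of the median turned with the scaling, to 0.05 centred on the median (24 of 36 higher), 0.17 with quantile normalization and 0.25 with TPM scaling. For 2-PCPA against rapamycin it was 0.17 with TPM scaling (31 of 36 higher). In both replicates 15 of 36 were lower with 2-PCPA than with rapamycin (37.0% of all genes), 12 lower and 10 higher with GSK343 than with rapamycin (19.4% and 39.6%), and 28 lower with 2-PCPA than with GSK343 (44.4%). Relative to the all-gene median, 8 of 36 were lower in both replicates in the last comparison, against 31.2% of all genes. The smallest limma adjusted p of any of the 36 was 0.464, 0.955 and 0.419. These values do not show that the compounds act alike, and doses and times differed.

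**Figure D4:**
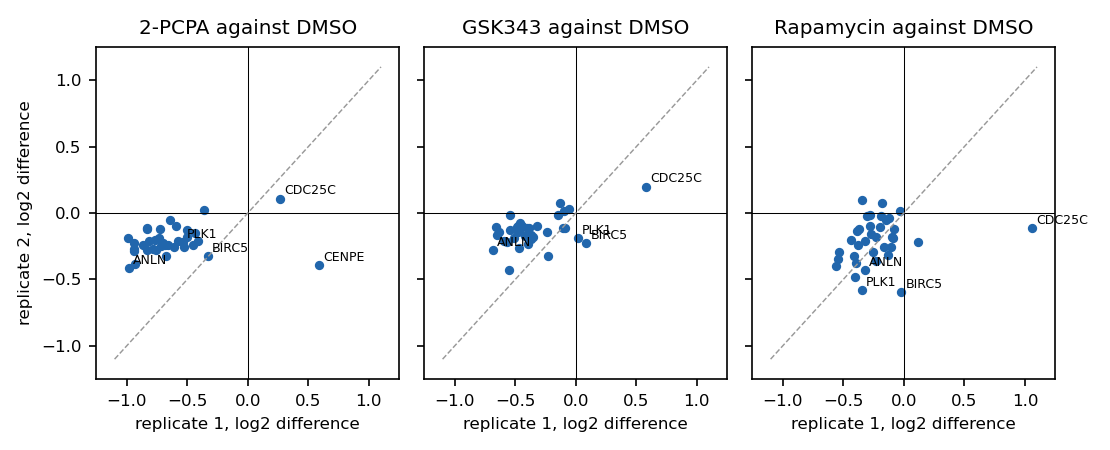
Log2(FPKM + 1) difference from DMSO in replicate 1 (horizontal axis) and replicate 2 (vertical axis) for 2-PCPA, GSK343 and rapamycin, with 1 point for each of the 36 genes and a dashed line where both are equal. Of the 36 genes 33, 30 and 31 lie below 0 on both axes, and the medians with 2-PCPA are −0.69 in replicate 1 and −0.23 in replicate 2.

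Other cell cycle genes were read for comparison. A list of 68 further G2 and mitosis genes, 67 of them averaging 1 FPKM or more in the replicate 1 table, had medians of −0.73 with GSK-J4 and −0.62 with BRD4770, with 42 and 35 genes past 1.5-fold lower and 0 higher. Its lowest genes were the tubulin TUBB4B (219 to 63.5 FPKM, −1.77) with GSK-J4 and PSRC1 (45.8 to 12.0 FPKM, −1.84), a spindle protein, with BRD4770. MKI67, which coats mitotic chromosomes and is used as a proliferation marker, was at 17.9 with GSK-J4 (−0.99) and 22.6 with BRD4770 (−0.67) against 36.6 FPKM. The 40 DNA replication genes, which act in S phase, were nearer to DMSO with BRD4770 (median −0.07, with 1 lower and 1 higher past 1.5-fold) than with GSK-J4 (median −0.41, with 16 lower and 1 higher). With 2-PCPA, 64 of the 68 further mitotic genes and 37 of the 40 replication genes were lower in both replicates, where 42.2% of all genes were and where 80.4% of all genes were below DMSO in replicate 1. In these lists 0 genes passed the limma adjusted p of 0.05.

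**Figure D5:**
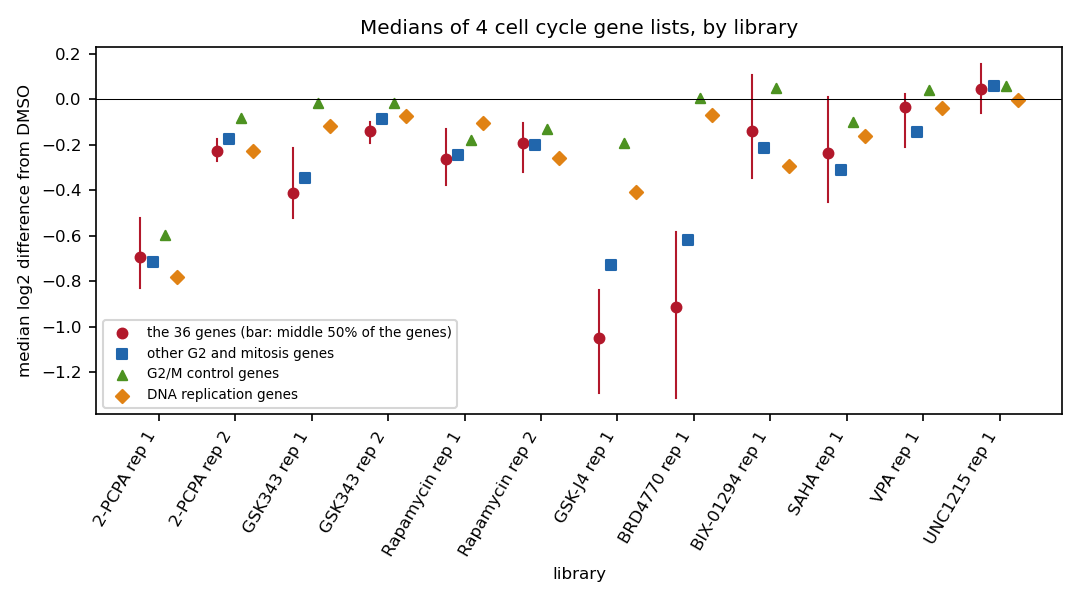
Median log2(FPKM + 1) difference from DMSO for the 36 genes (bars span their middle 50%), the further mitotic genes, the control genes and the replication genes in each compound library. With BRD4770 the 36 genes (−0.91) and the further mitotic genes (−0.62) lie low while the replication genes are at −0.07, and with GSK-J4 the replication genes lie at −0.41.

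The genes that control this programme did not move as one group, with medians over 28 genes of −0.19 with GSK-J4 and 0.01 with BRD4770. FOXM1, an activator of mitotic genes, was at 121 FPKM in DMSO replicate 1, 73.9 with BRD4770 (−0.71), 82.6 with GSK-J4 (−0.55) and 68.6 with SAHA (−0.81). MYBL2 was at 136 FPKM in DMSO, 138 with GSK-J4 (0.02) and 121 with BRD4770 (−0.17). CDC25B, a phosphatase that starts CDK1 activation, was at 24.3 against 45.5 FPKM with BRD4770 (−0.88). CDKN1A, the inhibitor p21 of cyclin-dependent kinases, was at 57.9 FPKM in DMSO, 113 with BRD4770 (0.96), 105 with GSK-J4 (0.84) and 244 with BIX-01294 (2.06). GADD45A, a stress gene that can hold cells in G2, was at 56.4 FPKM in DMSO, 125 with BRD4770 (1.14), 108 with GSK-J4 (0.92) and 805.5 with BIX-01294 (3.81). Of these libraries, both were highest with BIX-01294. WEE1, the kinase that inhibits CDK1, was at 46.0 against 22.1 FPKM with BIX-01294 (1.02), and LIN54, the DREAM subunit that binds CHR elements, at 15.4 against 7.18 FPKM (1.00). The part of these genes in the levels of the 36 was not tested.

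Most of the 36 genes had similar profiles across the 10 libraries of the replicate 1 table, as a description of libraries that share a table and a control. After each library was centred on its median, Pearson's r of a gene with the mean of the other 35 had a median of 0.883. It was highest for DLGAP5 (0.987), the checkpoint kinase BUB1 (0.979) and CCNB1 (0.973). The least alike were MAD2L1 (0.423), CDK1 (0.530) and CENPE (0.667), the genes that stayed nearest DMSO with BRD4770 or had high values in other libraries. Over the 630 pairs of genes r ran from 0.0874 to 0.977, with a median of 0.782. The share of all genes with such r is not given here. Genes outside the mitotic lists also followed the mean of the 36 closely, such as MRPL20 (0.957), so a high r is not particular to mitotic genes.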

How the data were processed

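RNA sequencing of 14 U2OS libraries was deposited as 2 gene tables, 10 libraries in the replicate 1 table and 4 in the replicate 2 table, with values in FPKM computed by the authors. Per the submitters' processing notes, FastQC, cutadapt, TopHat2 and hg19 were used. The FPKM program, its annotation and the read counts were not given in the sources used here, so depth is unknown. From the steps between low values, depth against the table's DMSO library was put at 0.559 to 1.24 and 0.674 to 0.807, a weak estimate.

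FPKM values were taken as log2(FPKM + 1). Groups came from the sample labels and replicate numbers from the tables. The main test was limma 3.58.1 (R 4.3.3) on 8 libraries (rapamycin, GSK343, 2-PCPA and DMSO), with the replicate as a block, a mean-variance trend and Benjamini-Hochberg adjustment, on 12603 genes averaging 1 FPKM or more. It was first tested on simulated data. Same-numbered libraries were correlated in their deviations from the group means (0.710 to 0.784 over 6 pairs of groups), and share a table. Compounds with 1 library were compared by a 1.5-fold limit on 12804 genes, with no test. The row named unknown (1 row) was left out.

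The 36 genes and all gene lists were chosen with earlier results of these data known. All 36 were named. Of other lists, the largest changes in each comparison and 8 preset genes could be named, and the 10 genes most alike by correlation. Alternatives were other pseudocounts, filters, scalings, fold limits and designs, and leaving out each replicate.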

Additional observations from a re-analysis of the deposited data

How the results depend on the processing

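In the 3 comparisons with DMSO and the 3 between compounds, 0 of the 36 genes passed in limma under all alternatives but 1. Without 2-PCPA replicate 2, so that the lone 2-PCPA library is assumed to vary like the other groups, 6 passed for 2-PCPA against GSK343 (range over left-out replicates 0 to 6), where 1844 of all genes did. CDC20, CENPA, KIF20A, PRC1 and UBE2C were lower and CENPE higher. The smallest limma adjusted p among the 36 genes over all alternatives ran from 0.0585 to 1 for 2-PCPA, 0.495 to 1 for GSK343 and 0.207 to 1 for rapamycin. The fit with no replicate block, against the pairing by table, gave 0 of 36 in each comparison. The median of the 36 genes with 2-PCPA was −0.46, with all genes at −0.20, and became −0.12 under TPM scaling, with all genes at 0.08. With GSK343 it was −0.28 and −0.38 under TPM scaling, and ran from −0.39 to −0.15 with 1 replicate left out. With rapamycin it was −0.21, −0.16 centred on the median and −0.28 under TPM scaling, and ran from −0.34 to −0.10 with 1 replicate left out. Under TPM scaling 5 genes that had not passed changed sign with 2-PCPA (BIRC5, BUB1, CKS2, ECT2, HMMR), and centred on the median CKS2 did so with 2-PCPA and AURKB and HMMR with rapamycin. With quantile normalization 2 did with 2-PCPA and 3 with rapamycin. Without DMSO replicate 1, 2 changed sign with 2-PCPA, 4 with GSK343 and 9 with rapamycin, and 4 did without GSK343 replicate 2 and 6 without rapamycin replicate 2. Each other left-out replicate turned at most 1. With no replicate left out, the number of the 36 with an unadjusted limma p under 0.05 varied with the setting. It ran from 0 to 17 for 2-PCPA, 0 to 20 for GSK343 and 0 to 13 for rapamycin. For 2-PCPA the highest count came with no filter on low values, where 1145 of 22919 genes had such a p. For GSK343 and rapamycin it came with TPM scaling, where 1233 and 2084 of 12603 genes did. Over all genes the main limma calls were 3, 2 and 2, and became 38, 45 and 66 without small RNA and clone rows (ranges 0 to 272, 0 to 45 and 0 to 66).

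At a 2-fold limit, 19 genes were lower with GSK-J4, 14 with BRD4770, 1 with BIX-01294, 0 with SAHA and 0 with UNC1215, and 1 was higher with BIX-01294, 1 with SAHA and 0 with UNC1215. At the 1.5-fold limit, the count lower with BIX-01294 was 8 with quantile normalization and 7 with TPM scaling. For SAHA it was 12 with TPM scaling. For VPA it was 1 centred on the median and 1 with TPM scaling. The shares of all genes under these scalings are not given here. With a pseudocount of 5, UNC1215 had 0 lower and 0 higher. The median of the other 9 libraries was also used as the reference, chosen after seeing the data. Against it BIX-01294 had 2 lower and 5 higher, SAHA 0 lower, and UNC1215 0 lower and 4 higher. That reference includes GSK-J4 and BRD4770, where all 36 genes were below DMSO. The shares of all genes against it are not given here, so these counts cannot be set beside a background. For GSK-J4 and BRD4770 such counts are not given here, and they need not equal those against DMSO. CCNA2 (38.7 and 41.4 FPKM) was within 1.5-fold of 49.3 FPKM, its median over all 10 libraries, though not of DMSO (77.9 FPKM). PLK1 (19.4 and 11.6 FPKM) stayed past 1.5-fold below its median of 53.4 FPKM. Of 1080 values of single genes under alternatives, 871 moved by less than the spread between replicates and 209 by more. The causes were not tested.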

Other observations

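Among the genes outside the 36, the 10 whose levels followed their mean most closely over the 10 libraries of the replicate 1 table included genes outside the mitotic lists. The highest Pearson's r was that of KNSTRN (0.969), a kinetochore and spindle protein, followed by MRPL20 (0.957), a protein of the mitochondrial ribosome, the helicase DHX9 (0.954), the chromatin protein PSIP1 (0.947) and the spindle microtubule protein CKAP5 (0.941). DEPDC1B (0.938), BAP1 (0.933), PUF60 (0.933), the importin KPNA2 (0.931) and AGPS (0.931) completed the 10. Of these 10, 2 were in the list of further mitotic genes, CKAP5 and DEPDC1B, and of the first 30, 8 were. These correlations describe 10 libraries that share a table and a control, and carry no test.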
